A study of Homo sapiens with 4 samples.

Results

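The SOCS family was examined in the m6A meRIP-seq data of OE-19 cells, an established cell line from an adenocarcinoma of the esophagogastric junction. The family comprises 8 genes, SOCS1 to SOCS7 and CISH. All peaks whose summit lay in the annotated body of one of these genes were taken, which gave 9 of the 24607 peaks of replicate 1 and 7 of the 19318 peaks of replicate 2. In meRIP-seq, an antibody to N6-methyladenosine (m6A) enriches RNA fragments that carry this mark, and the sequenced fragments are piled up on the genome to call peaks.

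The 4 samples of the series came from OE-19 cells in culture with no treatment named, as 2 replicates of the m6A immunoprecipitation (IP) and 2 of input RNA. A separate peak list was used for either IP replicate, and the input samples were not analysed here. All values therefore came from 1 group of 2 libraries, so that no test between conditions could be made and the family is described beside all genes or all exonic peaks of the same list. No label says whether the replicates were separate cultures. Depth is unknown, as read numbers are not part of the lists, and for a gene without a peak, low expression and absence of m6A cannot be told apart. Of 10 epithelial marker genes, exonic peaks in both replicates were found for 5 (CDH1, ELF3, GATA6, HNF4A and CDX2). EPCAM, KRT8, KRT18, KRT19 and CDX1 had none in either replicate. Of 8 markers of leukocytes, fibroblasts and endothelium, 1 (CD14) had peaks in both. Over all protein-coding genes the share was 33.4%, and these counts do not measure expression.

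SOCS proteins are brakes on cytokine signalling. Cytokines that bind their receptors switch on JAK kinases, which phosphorylate STAT transcription factors, and STATs in turn induce several SOCS genes, so that the pathway limits itself. Each SOCS protein carries an SH2 domain, which binds phosphorylated tyrosine on receptors or kinases, and a SOCS box at its C-terminal end, which recruits elongins and cullin 5 to mark the bound protein for degradation. CISH and SOCS2 are best known for damping growth hormone and STAT5 signals, and SOCS1 and SOCS3, which can also block JAK kinase activity directly, for interferon and IL-6 signals. SOCS4 to SOCS7 have longer N-terminal regions and have been linked to receptor tyrosine kinases and insulin signalling. m6A is deposited mainly at adenines within short motifs built around GGAC, often in long exons and around stop codons.

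First, the motifs at the summits were examined, since they show the sequence under each peak. Both sides of each summit were searched over 50 nt for GGAC, read on the strand that carries the gene. The GGAC nearest each shared summit, at any distance, is shown here where it lay in coding or 3′ UTR sequence. That of the SOCS2 peak is shown as well. A wide peak can hold several GGAC motifs, so the nearest one need not be a modified position. Each line gives 26 bases of hg38, 5′ to 3′ on the strand of the gene, with GGAC in capitals.

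SOCS4, chr14:55043259-55043284, plus strand: ccattgagttGGACttagatcattcc
SOCS5, chr2:46759753-46759778, plus strand: ctgcgcaagaGGACtacctcttctct
SOCS5, chr2:46759738-46759763, plus strand: ttttgctcagGGACtctgcgcaagag
SOCS6, chr18:70325640-70325665, plus strand: gaacttcagtGGACtcactggcacag
SOCS7, chr17:38352397-38352422, plus strand: cccggcggctGGACtagaggcgcagt
CISH, chr3:50607655-50607680, minus strand: tggccgacgtGGACtgcctgccactg
CISH, chr3:50607545-50607570, minus strand: accctggaggGGACatcagccccagc
SOCS2, chr12:93574982-93575007, plus strand: aaggataagcGGACaggtccagaagc

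The SOCS4, SOCS6 and SOCS7 sites were the nearest in both replicates. In SOCS5 and CISH the replicates had different nearest sites, with replicate 1 listed before replicate 2. The nearest SOCS4 GGAC lay 47 nt from the summit in replicate 1 and 17 nt in replicate 2. For SOCS5 the distances were 8 and 13 nt. For SOCS6 they were 22 and 5 nt. The first-exon site of SOCS7 was 76 nt from the summit in replicate 1 and 9 nt in replicate 2, and the CISH sites were 27 and 32 nt away. The SOCS2 site lay 3 nt from its summit. Of the peaks whose sites are not shown, SOCS3 had its nearest GGAC 118 nt from the summit, outside the peak. For the SOCS7 peaks in exon 5 the distances were 99 and 142 nt, and for the intronic SOCS7 peak of replicate 2 it was 269 nt. For the CISH peak of replicate 1 in the 5′ UTR it was 4 nt.

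GGAC was present at 6 of the 9 exonic summits of the family in replicate 1 and at 5 of 6 in replicate 2. Over all exonic summits the motif was present at 49.7% in replicate 1 and 51.5% in replicate 2. The longer TGGAC, which contains GGAC, was present at 3 of 9 and 5 of 6 summits, beside 18.9% and 20.1% of all exonic summits. GGACT, which also contains GGAC, was found at 4 of 9 and 4 of 6, beside 17.7% and 18.9%. The reverse complement GTCC, searched in the same windows, was found at 6 of 9 and 0 of 6, beside 31.5% and 29.6%. The 3 exonic summits of replicate 1 without GGAC were those of SOCS3 and both SOCS7 peaks, and the one of replicate 2 was the SOCS7 peak in exon 5. These matches describe the sequence only, and the summits of a gene in both lists share that sequence.

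Next, the genes with peaks were counted. A summit lay in an exon of 7 of the 8 genes in replicate 1 and of 5 in replicate 2, and the latter, SOCS4, SOCS5, SOCS6, SOCS7 and CISH, were all among the former. Among all 20046 protein-coding genes, 42.4% had an exonic peak in replicate 1, 34.1% in replicate 2 and 33.4% in both, or 37.7% in both when any summit in the gene body was counted. Long transcripts offer more room for a peak. Among the 13300 genes whose transcript was within the length range of the family (1784 to 8258 nt), 39.3% had a peak in both replicates. SOCS2 and SOCS3 had a peak in replicate 1 only, as did 9.02% of all protein-coding genes, and SOCS1 had none in either replicate.

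All 6 exonic peaks of replicate 2 overlapped a peak of replicate 1, and 6 of the 9 exonic peaks of replicate 1 overlapped a peak of replicate 2. Over all exonic peaks, 95.0% of replicate 2 and 60.2% of replicate 1 were shared in this way. The shared peaks were in register, with summits 27 to 67 bp apart. In each of the 6 pairs, the overlap made up at least 83.9% of either peak. The 7th peak of replicate 2 had its summit in an intron of SOCS7 and was not shared.

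**Figure D1:**
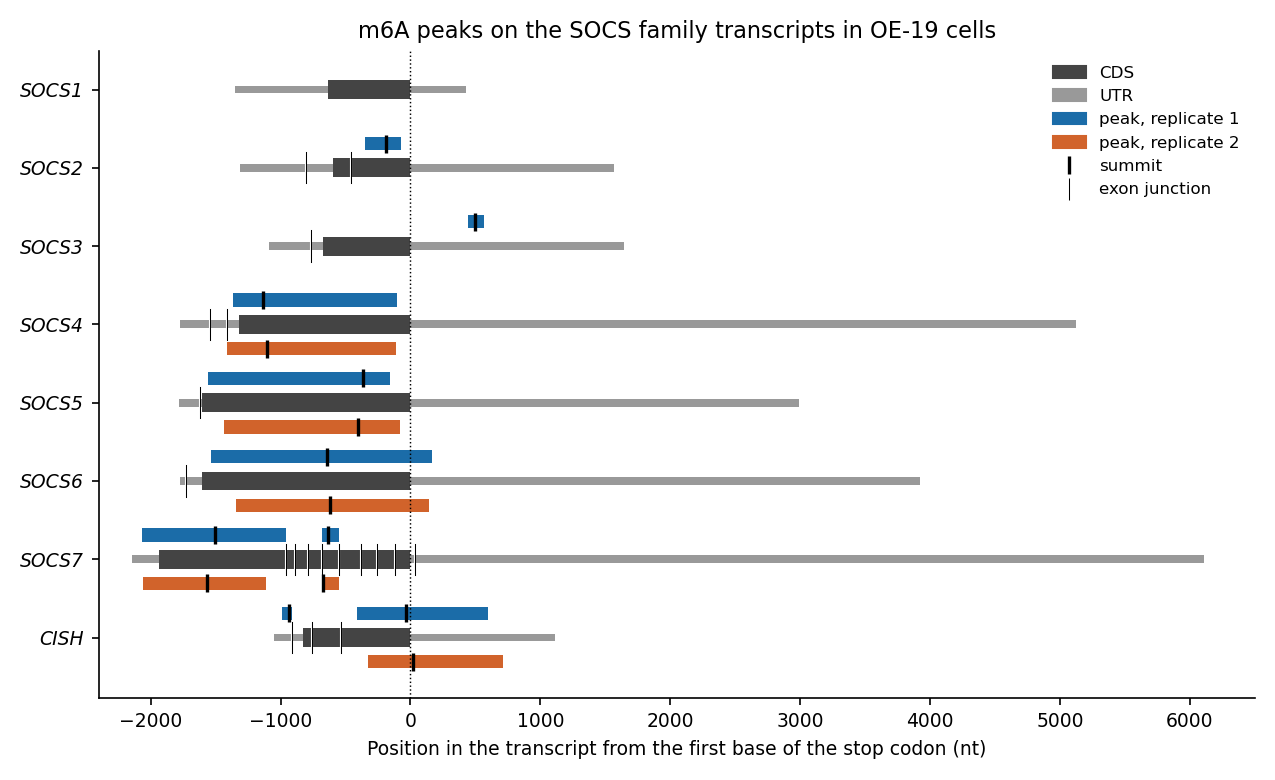
For each SOCS family gene, its transcript of greatest coding sequence (CDS) length, aligned at the first base of the stop codon (x axis, nt), with exonic peaks of replicate 1 above and of replicate 2 below, black marks for summits and thin lines for exon junctions. The wide peaks of SOCS4, SOCS5 and SOCS6 lie over the CDS and leave nearly all of the long 3′ UTR free, the CISH peaks straddle the stop codon, and SOCS1 has no peak.

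Each peak carries a fold enrichment, the pileup at its summit relative to the local background, and a q-value, given as −log10 q, so that larger values are more certain. Coordinates are those of hg38, with GENCODE version 44 genes. SOCS4, SOCS5 and SOCS6 showed a common layout. In each gene the whole CDS lies in 1 long last exon that continues into a long 3′ UTR, and each replicate had a single wide peak over that CDS. SOCS4 (ENSG00000180008.9, chromosome 14, 55027230 to 55049489, plus strand), which has been linked to EGFR turnover, had its peak in exon 3 of transcript ENST00000555846.2, an exon of 6538 nt. In replicate 1 the peak ran from 55042996 to 55044257, with a fold enrichment of 7.65 and a −log10 q of 38.8. In replicate 2 it ran from 55042933 to 55044254, with a fold enrichment of 12.7 and a −log10 q of 61.1. Both summits were early in the CDS, at codons 61 and 71 of 440, which is 1138 and 1108 nt upstream of the stop codon.

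SOCS5 (ENSG00000171150.9, chromosome 2, 46698952 to 46780245, plus strand) has likewise been linked to EGFR and to IL-4 signalling. Its peak lay in exon 2 of transcript ENST00000306503.5, an exon of 4611 nt. In replicate 1 the peak ran from 46758582 to 46759982, with a fold enrichment of 7.34 and a −log10 q of 43.4. In replicate 2 it ran from 46758704 to 46760060, with a fold enrichment of 13.1 and a −log10 q of 70.5. The summits were late in the CDS, at codons 415 and 403 of 536, and so 366 and 402 nt upstream of the stop codon. The lncRNA LINC01118 overlaps the gene body, but SOCS5 was the sole gene with an exon at the summits.

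SOCS6 (ENSG00000170677.6, chromosome 18, 70289045 to 70330199, plus strand), known to bind KIT and insulin pathway proteins, carried its peak in exon 2 of transcript ENST00000397942.4, an exon of 5657 nt. In replicate 1 the peak ran from 70324738 to 70326436, with a fold enrichment of 7.24 and a −log10 q of 48.9. In replicate 2 it ran from 70324928 to 70326415, with a fold enrichment of 10.7 and a −log10 q of 64.7. The summits, at codons 321 and 330 of 535, were 644 and 617 nt upstream of the stop codon. The order of the summits along the CDS therefore differed between the 3 genes, from early in SOCS4 over the middle part in SOCS6 to late in SOCS5, while the replicates of a gene stayed within 36 bp of each other.

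These peaks were among the widest of the lists. SOCS4 peaks were 1262 and 1322 bp wide, SOCS5 peaks 1401 and 1357 bp, and SOCS6 peaks 1699 and 1488 bp, which is between percentiles 94.5 and 97.5 of all exonic peaks of the same list. The median exonic peak was 314 bp wide in replicate 1 and 361 bp in replicate 2. With SOCS7 exon 1 and CISH, 5 of the 6 shared pairs of the family had both peaks at least 900 bp wide, beside 1525 of all 11741 exonic pairs. Exonic peaks covered 92.1% of the SOCS4 CDS in replicate 1 and 91.9% in replicate 2. For SOCS5 the covered part was 87.1% and 84.4%, and for SOCS6 95.7% and 83.9%. Across the 6686 protein-coding genes with an exonic peak in both replicates, the median was 26.2% in replicate 1 and 17.5% in replicate 2. Most of these genes (6118) have a CDS split over several exons, unlike SOCS4, SOCS5 and SOCS6. The median of the 568 genes with 1 coding exon is not given here, so the part of gene structure in this difference was not tested. Since a list gives 1 summit per peak, the number of modified sites under such a peak cannot be read from it.

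The peaks ended close to the stop codon. On the transcript, the ends were −105 and −108 nt from the start of the stop codon for SOCS4. They were −157 and −79 nt for SOCS5, and 162 and 141 nt for SOCS6. The 3′ UTRs, of 5128 nt in SOCS4, 2991 nt in SOCS5 and 3926 nt in SOCS6, held no further peak in either replicate. The interval covered in both replicates held 3 GGAC motifs in SOCS4, which are all 3 of its CDS. It held 9 of the 10 in the SOCS5 CDS and all 10 in the SOCS6 CDS. Per length, the CDS of SOCS5 and SOCS6 held 6.22 and 6.23 GGAC per kb, whereas the SOCS4 CDS held 2.27. The median was 4.64 over 20046 protein-coding transcripts. The 3′ UTRs held 1.17 (SOCS4), 1.00 (SOCS5) and 1.27 (SOCS6) per kb. These were below the median of 2.36 over the 18073 transcripts with a 3′ UTR of at least 100 nt. The 3′ UTRs of SOCS1, SOCS2 and SOCS7, also without a peak, held 2.33, 1.27 and 2.78 per kb. That of SOCS3, with a peak in replicate 1 only, held 6.70, and that of CISH, under a shared peak, 6.24. A relation of these densities to the peaks was not tested.

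**Figure D2:**
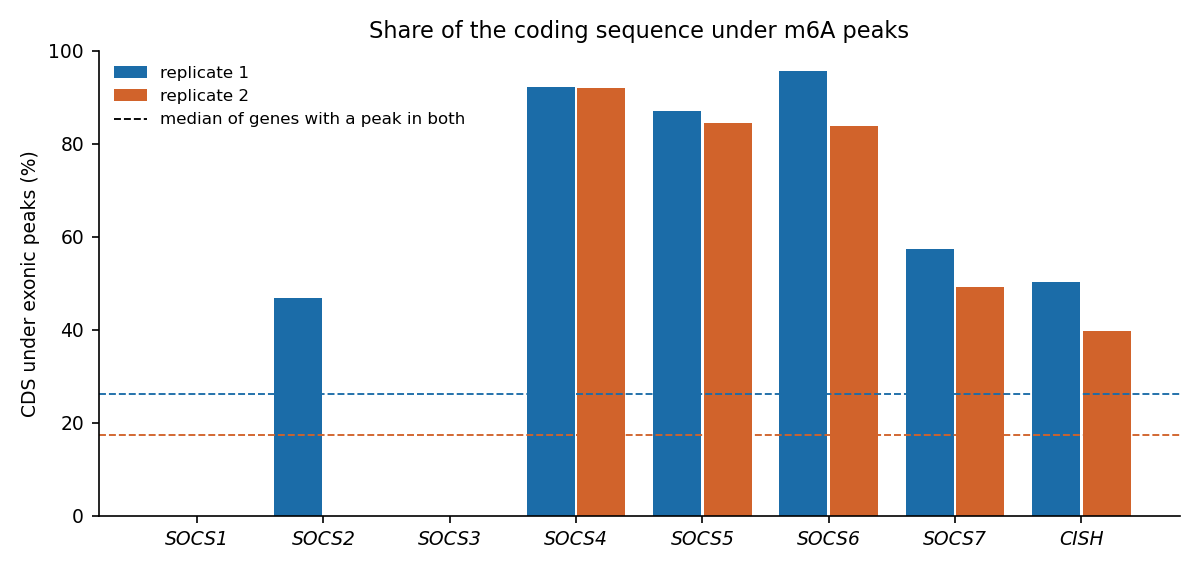
Share of the CDS (y axis, %) under exonic peaks of each SOCS family gene in replicates 1 and 2, with dashed lines for the median of the 6686 protein-coding genes that had an exonic peak in both replicates (26.2% and 17.5%). Most of these genes (6118) have several coding exons. SOCS4, SOCS5 and SOCS6 are at 83.9% or more in both replicates, SOCS7 and CISH between 39.8% and 57.4%, and the SOCS2 bar is from replicate 1 alone.

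SOCS7 (ENSG00000274211.6, chromosome 17, 38351844 to 38405593, plus strand), an adaptor-like member that binds insulin receptor substrate proteins, differed in structure, with 10 exons, 9 of them coding, in transcript ENST00000612932.6. Its main peak lay at the other end of the transcript, in exon 1, which holds the 5′ UTR and the start of the CDS in 1189 nt. In replicate 1 it ran from 38351922 to 38353048, with a fold enrichment of 6.03 and a −log10 q of 30.01. In replicate 2 it ran from 38351929 to 38352873, with a fold enrichment of 6.28 and a −log10 q of 30.3. The summits were at codons 145 and 122 of 645, 432 and 365 nt after the start codon. This interval held 7 GGAC motifs in 945 bp and was 75.5% G and C, at percentile 97.8 of all exonic pairs.

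A second SOCS7 peak in both replicates lay over exon 5, an internal coding exon of 131 nt, and reached into the introns on both sides. In replicate 1 it ran from 38366218 to 38366453, with a fold enrichment of 5.64 and a −log10 q of 8.94. In replicate 2 it ran from 38366225 to 38366466, with a fold enrichment of 2.96 and a −log10 q of 2.07, which is at percentile 2.68 of the exonic peaks of that list. Its exon was among the shortest that held a summit, at percentile 3.56 in replicate 1 and 0.988 in replicate 2. The only GGAC in the interval shared by both peaks was in the adjoining intron, 99 nt from the summit of replicate 1. A further position had a peak in replicate 2 alone, from 38361597 to 38361855, with a fold enrichment of 5.72 and a −log10 q of 5.62. Its summit was intronic, 27 nt from exon 2, and the peak covered all 65 bp of that exon. The 3′ UTR of SOCS7, with 6114 nt the longest of the family, held no peak in either replicate.

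CISH (ENSG00000114737.16, chromosome 3, 50606489 to 50611774, minus strand), the founding member of the family, had its peak around the stop codon. It lay in exon 4 of transcript ENST00000443053.6, the last exon with 1647 nt. In replicate 1 it ran from 50607014 to 50608024, with a fold enrichment of 17.3 and a −log10 q of 77.3, the highest values of the family. In replicate 2 it ran from 50606897 to 50607937, with a fold enrichment of 8.65 and a −log10 q of 52.7. The summit of replicate 1 was in CDS 32 nt before the stop codon, at codon 265 of 275, while the summit of replicate 2 lay just beyond it in the 3′ UTR, at 19 nt. The shared interval of 924 bp held 328 bp of CDS and 596 bp of 3′ UTR. The adenines of its 6 GGAC motifs were at −59, 51, 68, 259, 372 and 477 nt from the stop codon, 1 in CDS and 5 in the 3′ UTR.

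A further CISH peak was found in replicate 1 only, from 50611579 to 50611705, with a fold enrichment of 8.35 and a −log10 q of 11.3. Its summit lay in exon 1, in the 5′ UTR, −112 nt from the start codon of the longest coding transcript and −6 nt from that of the MANE Select transcript. An exon of MAPKAPK3 overlaps this position on the opposite strand. The lists carry no strand, so the gene of this peak is uncertain.

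The peaks of SOCS2 and SOCS3 were found in replicate 1 only and had low −log10 q values, at percentiles 10.99 and 17.8 of its exonic peaks. SOCS2 (ENSG00000120833.14, chromosome 12, 93569814 to 93583487, plus strand) had a peak from 93574830 to 93575107, with a fold enrichment of 5.12 and a −log10 q of 3.44. The summit was in the CDS of its last exon, at codon 137 of 198 and 186 nt upstream of the stop codon. SOCS3 (ENSG00000184557.4, chromosome 17, 78356778 to 78360077, minus strand) had a peak from 78357852 to 78357974, with a fold enrichment of 5.68 and a −log10 q of 4.59. Its summit was in the 3′ UTR, 495 nt after the stop codon, and the peak of 123 bp held no GGAC, although the transcript holds 22 such motifs. Of the 4112 exonic peaks of replicate 1 with a −log10 q under 5, 20.2% were shared with replicate 2. By contrast, 99.4% of the 4002 with a −log10 q of 30 or more were shared, as were 2665 of 2666 such peaks of replicate 2, which rounds to 100%. These classes held the SOCS4, SOCS5, SOCS6, SOCS7 exon 1 and CISH stop codon peaks.

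SOCS1 (ENSG00000185338.7, chromosome 16, 11254417 to 11256204, minus strand) lies within the body of RMI2 on the opposite strand and had no peak in its body in either list. It is the shortest gene of the family, with a MANE Select transcript of 1238 nt, and its CDS, of 71.4% G and C, holds 2 GGAC motifs. Of the 5 genes whose CDS lies in 1 exon (SOCS1, SOCS3, SOCS4, SOCS5 and SOCS6), 3 had an exonic peak in both replicates, beside 25.8% of the 2201 such protein-coding genes. Of the 3 genes with several coding exons (SOCS2, SOCS7 and CISH), 2 had one, beside 34.3% of such genes. There are 8 annotated pseudogenes named after SOCS2, SOCS5 or SOCS6, and 0 of them had a peak in either list. The share of all annotated pseudogenes with a peak is not given here, so this count cannot be read as a trait of these copies.

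With respect to the stop codon, 2 of the 9 exonic summits of the family in replicate 1 and 1 of 6 in replicate 2 were within 200 nt, namely the CISH summits and the SOCS2 summit. Over all exonic summits on such transcripts the share was 24.5% in replicate 1 and 27.1% in replicate 2. CDS held 7 of 9 and 5 of 6 summits, beside 61.5% and 61.0% of all summits. The 5′ UTR held 1 of 9 and 0 of 6, beside 8.83% and 5.69%, and the 3′ UTR held 1 of 9 and 1 of 6, beside 29.6% and 33.3%.

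**Figure D3:**
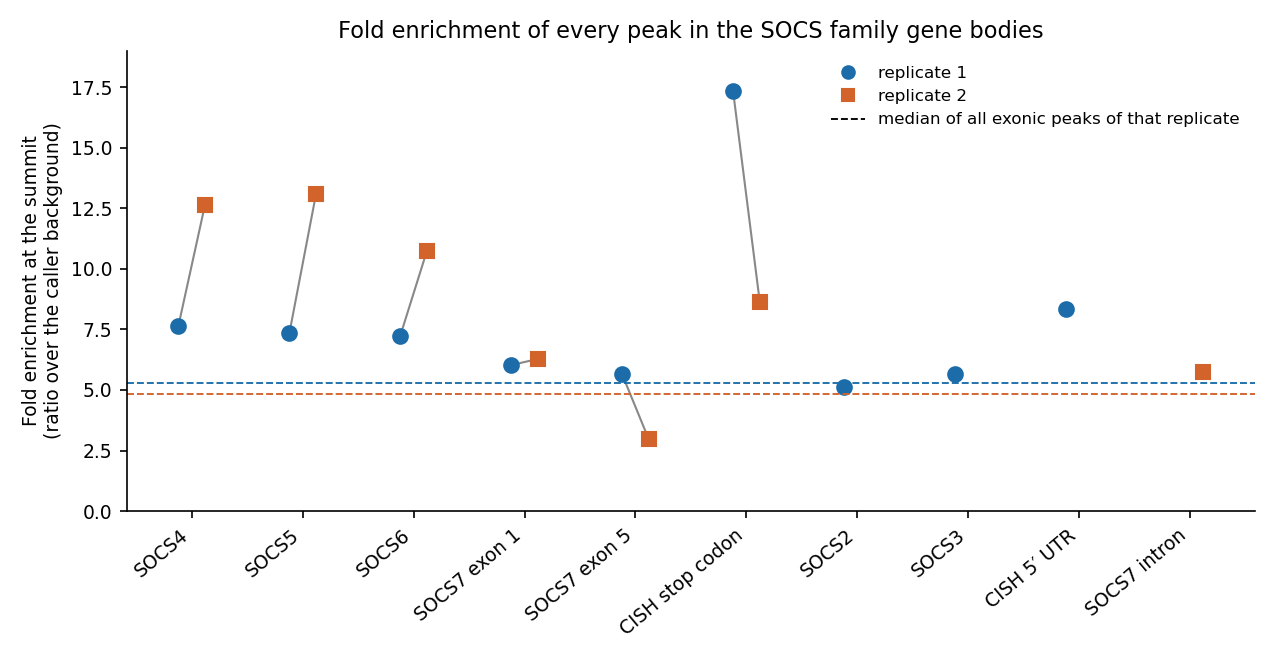
Fold enrichment at the summit (y axis, a ratio to the local background that the caller estimated) of every peak in the SOCS family gene bodies, with circles for replicate 1, squares for replicate 2, grey lines joining shared peaks, and dashed lines for the median of all exonic peaks of each replicate (5.30 and 4.82). SOCS4, SOCS5 and SOCS6 lie between 7.24 and 7.65 in replicate 1 and between 10.7 and 13.1 in replicate 2, while CISH goes from 17.3 down to 8.65.

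The fold enrichment of the family was then compared between the replicates. The order of the genes differed. Among the shared peaks of replicate 1, the CISH stop codon peak led with 17.3. It was followed by SOCS4 (7.65), SOCS5 (7.34), SOCS6 (7.24), SOCS7 exon 1 (6.03) and SOCS7 exon 5 (5.64). The unshared CISH peak in the 5′ UTR, whose gene is uncertain, had 8.35. Among the shared peaks of replicate 2, SOCS5 (13.1) and SOCS4 (12.7) led. They were followed by SOCS6 (10.7), CISH (8.65), SOCS7 exon 1 (6.28) and SOCS7 exon 5 (2.96). Each value is that of 1 library, so neighbours in these orders cannot be separated from the variation between libraries. By the geometric mean of both replicates, CISH had 12.2, SOCS4 9.84, SOCS5 9.80, SOCS6 8.82, SOCS7 exon 1 6.15 and SOCS7 exon 5 4.09, beside a median of 5.70 over 11741 exonic pairs.

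Of the 6 pairs, 2 had the higher fold enrichment in replicate 1, beside 80.0% of all exonic pairs, whose median log2 ratio of replicate 1 over replicate 2 was 0.43 (quartiles 0.09 and 0.77). The log2 ratio was −0.83 for SOCS5, −0.73 for SOCS4 and −0.57 for SOCS6, at percentiles 1.69, 2.31 and 3.96 of all exonic pairs. It was −0.06 for SOCS7 exon 1, at percentile 17.1. In the other direction it was 0.93 for SOCS7 exon 5 and 1.00 for CISH, at percentiles 83.3 and 86.1. SOCS4, SOCS5 and SOCS6 thus had 1.65-fold, 1.78-fold and 1.48-fold higher values in replicate 2, against the direction of most pairs.

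Base composition differed between these peaks as well. The mean GC content of the pair was 39.98% for SOCS4, 44.2% for SOCS5 and 49.0% for SOCS6. It was 57.5% for SOCS7 exon 5, 60.0% for CISH and 75.5% for SOCS7 exon 1. SOCS7 exon 1, with the highest GC content of the 6 pairs, also had a log2 ratio below 0 (−0.06). Over all exonic pairs, split into 5 classes of nearly equal size by GC content, the median log2 ratio was 0.32 in the lowest class and 0.50 in the highest. Spearman's rho of GC content with the log2 ratio was 0.13 over the 11741 pairs, which come from the same libraries and often the same genes. Within their own GC class, the log2 ratios of SOCS4, SOCS5 and SOCS6 were at percentiles 4.15, 3.30 and 4.41. Set among the 1525 pairs with both peaks at least 900 bp wide, of which 85.5% were higher in replicate 1 (median log2 ratio 0.45), they were at percentiles 1.02, 0.754 and 2.13. Among the 1739 pairs with the summit in an exon of at least 4000 nt (median 0.39), they were at percentiles 3.02, 2.27 and 4.80. These classes were chosen after the values were seen, and the part of GC content, peak width and exon length in these ratios was not tested. Fold enrichment is relative to the background of each library, and a ratio between libraries does not measure a change in the m6A level.

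**Figure D4:**
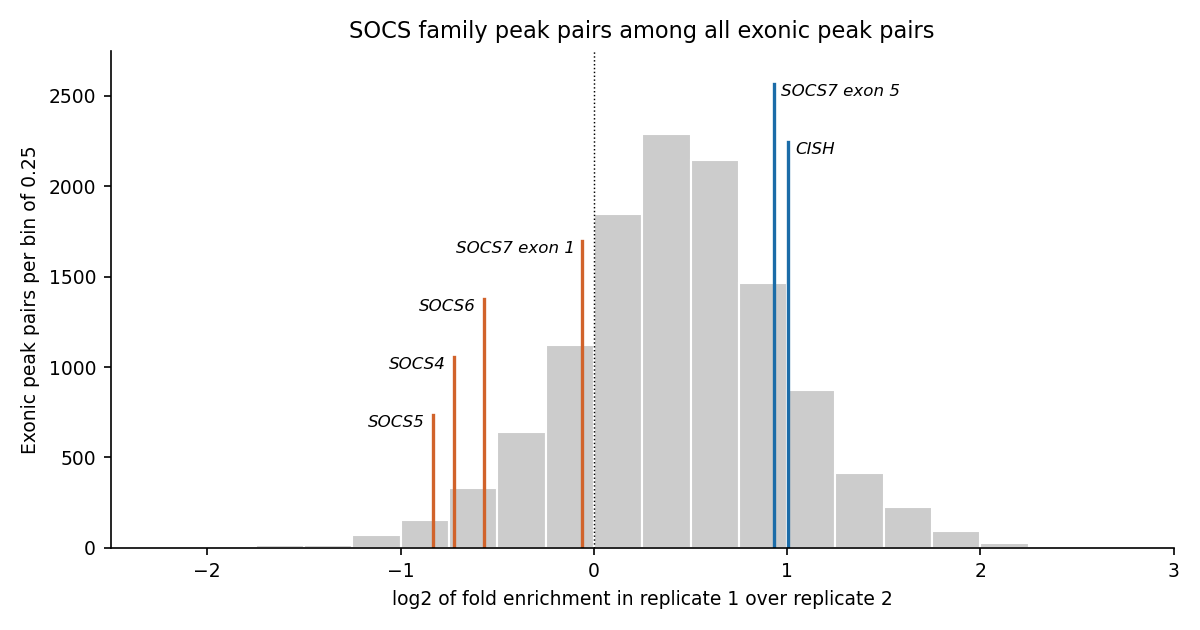
Number of exonic peak pairs (y axis) by the log2 ratio of fold enrichment in replicate 1 over replicate 2 (x axis, bins of 0.25), with lines at the 6 SOCS family pairs, whose heights carry no value. SOCS5, SOCS4 and SOCS6 are in the left tail at −0.83, −0.73 and −0.57, while SOCS7 exon 5 and CISH are right of the median at 0.93 and 1.00.

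Finally, the genes around the SOCS proteins were examined, from a list of 103 genes of cytokine signalling and of other proteins with a SOCS box. In total, 41 of them (39.8%) had an exonic peak in both replicates, 8 in replicate 1 only and 54 in neither. Of all protein-coding genes, 33.4% had a peak in both replicates. Among genes with a transcript in the length range of the SOCS family the share was 39.3%, close to that of the list. Cytokine receptors had peaks in both replicates in 14 of 27 genes. The strongest was IL6ST, the signal-transducing chain gp130 of the IL-6 family receptors, with fold enrichments of 14.7 (replicate 1) and 18.2 (replicate 2) and summits at −88 and −96 nt from the stop codon. IL20RA, a receptor chain for IL-20 family cytokines, followed with 9.46 and 15.3. Of 10 cytokines, LIF (4.75 and 3.70) and CLCF1 (9.96 and 3.43), both ligands of gp130 receptors, had shared peaks.

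JAK kinases and STAT factors connect the receptors with the SOCS genes. Of the 4 JAK kinases, TYK2 had a shared peak (4.90 and 3.31), beside 33.4% of all protein-coding genes with peaks in both replicates, and JAK1, JAK2 and JAK3 had no exonic peak. Among the STAT genes, STAT6, which responds to IL-4 and IL-13, had peaks in both replicates (best 6.69 and 4.88) and STAT5B a weak one in replicate 1 alone (3.07). No exonic peak was found for STAT2, STAT3, STAT4 or STAT5A. Their expression is not given in the lists.

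The counts of the remaining roles stand beside 33.4% of all protein-coding genes with a peak in both replicates. Among genes with a transcript in the length range of the SOCS family this share was 39.3%. Among receptors and adaptors outside the cytokine class that SOCS proteins bind, 5 of 8 had peaks in both replicates. The insulin receptor substrates IRS1 (6.14 and 14.2) and IRS2 (12.4 and 5.62) had the largest values of this group, in opposite orders of the replicates. The list also held 8 genes of the ubiquitin ligase that the SOCS box recruits, its partners and the related CUL2 and RBX1. Of these, ARIH2, a ligase that works with neddylated cullin 5, had a shared peak (11.1 and 4.47). Other proteins with a SOCS box had peaks in both replicates in 11 of 27 genes, led by the ankyrin repeat proteins ASB7 (8.24 and 11.9) and ASB8 (8.69 and 11.3). Other brakes on the pathway had them in 6 of 12, led by the SUMO ligases PIAS4 (12.7 and 8.31) and PIAS1 (8.08 and 8.13). By geometric mean, 6 of the 40 listed genes with a shared peak pair were above SOCS4, and 1, IL6ST, was above CISH. Of these 40 pairs, the best of each gene, 30 had the higher fold enrichment in replicate 1, beside 80.0% of all exonic pairs.

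**Figure D5:**
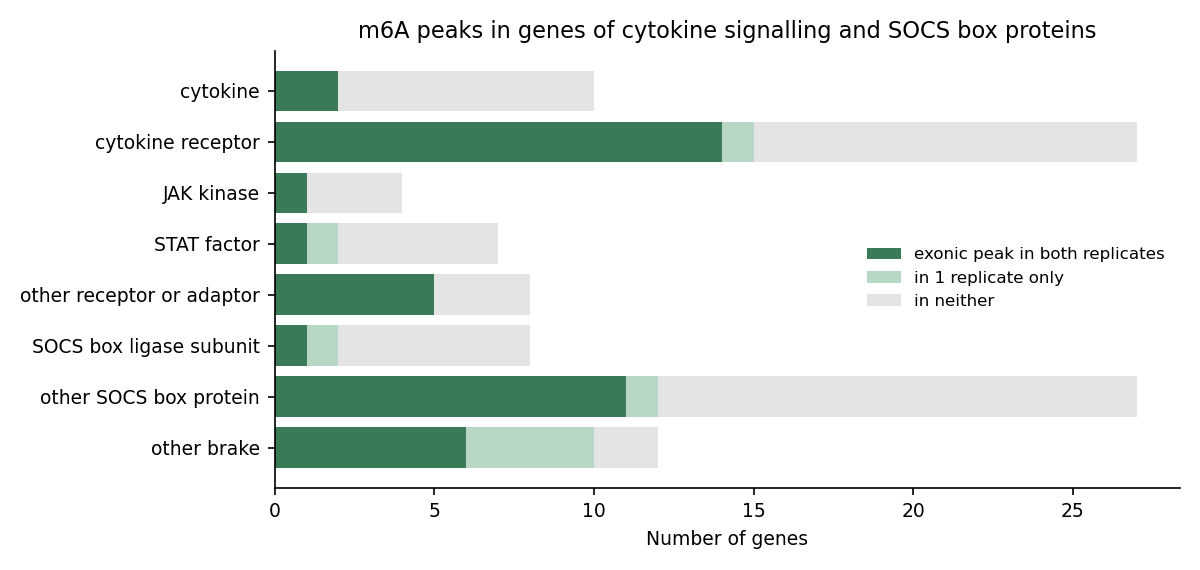
Number of genes (x axis) in each role of the list of 103 genes (y axis) with an exonic m6A peak in both replicates, in 1 replicate only (replicate 1 in all 8 cases) or in neither. Shared counts are highest in the largest roles, cytokine receptors (14 of 27) and other proteins with a SOCS box (11 of 27). By share, other receptors or adaptors (62.5%) come first, then cytokine receptors (51.9%), other brakes (50%) and other proteins with a SOCS box (40.7%). Of 4 JAK kinases, 3 have no peak, and over all protein-coding genes the share with peaks in both lists is 33.4%.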

How the data were processed

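meRIP-seq of OE-19 cells was analysed from the 2 m6A IP samples, grouped by their titles; the 2 input samples entered no comparison. The study's methods describe DNase-treated, fragmented total RNA and an antibody to m6A. The labels instead describe UV-fixed, lysed cells and a directional library kit. The study's methods name TopHat2 and MACS2 with default settings on hg38, while the submitters' processing notes name fastp, HISAT2 and MACS2, so the aligner is uncertain. Versions, and whether the input served as control, are not given in the sources used here. Per the file columns, the authors deposited each peak with its summit offset, a fold enrichment (ratio to the caller's background), −log10 p-values and −log10 q-values, while their score was not used. No q exceeded 0.0491 (replicate 1) or 0.0497 (replicate 2).

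All 44 chromosome names of replicate 1 and all 53 of replicate 2 were found in hg38, and 0 peaks passed a chromosome end. Genes came from GENCODE version 44. Exonic summits were given to the gene of the exon, protein-coding genes taking precedence. Stop codon distances were taken on the transcript with the longest CDS, motifs from hg38 within 50 nt, and peaks were called shared at an overlap of 1 bp or more. Percentiles are ranks among all exonic peaks or pairs of the same list. No test was run, and precision is limited by the small number of peaks. The members, lists and rules were chosen with earlier results of these data known. Named genes were all members, all JAK and STAT genes, IL6ST, genes overlapping a member, and in each role the 2 with the highest shared peak by geometric mean, except that 1 gene of the list is not reported here. Alternatives covered q, fold enrichment, list length, overlap, gene assignment, windows and left-out replicates. The scripts were tested on simulated data. Python 3.11.15, numpy 2.4.6, pandas 2.3.3, scipy 1.17.1, pysam 0.24.0 and matplotlib 3.10.9 were used.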

Additional observations from a re-analysis of the deposited data

How the results depend on the processing

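In total, 76 values were recomputed under 19 settings, and 69 stayed within 1.5 times the reported count. For small counts this limit is wide, as it admits a drop from 3 to 2 summits near the stop codon. The q limit of 0.01 removed no exonic peak of the family, so it could not change the family counts. The 5 SOCS family genes with an exonic peak in both replicates stayed at 5 under each q, fold enrichment, list length and gene assignment setting, and a gene count from 1 list alone ranged from 5 to 7. The pairs with the higher fold enrichment in replicate 1 went from 2 of 6 to 1 of 5 at q of 1e-05 or less and to 1 of 5 at a fold enrichment of 5 or more, since both limits removed the SOCS7 exon 5 peak of replicate 2. The listed pathway genes with peaks in both replicates dropped from 41 to 24 at a fold enrichment of 5 or more. With peak midpoints the non-exonic peaks went from 1 to 0, because the midpoint of the SOCS7 peak lay in exon 2. Leaving out each replicate in turn gave 1 to 2 summits near the stop codon and 5 to 6 summits with GGAC, as each list held fewer summits. The MANE Select transcript as reference for the stop codon, chosen after seeing the data, gave the same 3 summits. No paired analysis was possible because the input samples that share replicate numbers with the IP samples were not analysed here. The absence of a peak was not weighed by depth or expression, which the lists do not give.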

Other observations

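Some genes of the list around the SOCS family, named here after their values were seen, had features not described above. CBL, a ubiquitin ligase of receptor tyrosine kinases, had its only exonic peak in replicate 1, in CDS. It had a fold enrichment of 8.99 and a −log10 q of 26.2 and overlapped no peak of replicate 2. IRS2 had the widest best pair of the list, with peaks of 4592 and 2779 bp. RAB40C (1970 and 1937 bp) and ASB6 (1624 and 1457 bp), both with a SOCS box, also had wide peaks. SPSB1, another protein with a SOCS box, had fold enrichments of 14.8 (replicate 1) and 5.29 (replicate 2), while EPOR, the erythropoietin receptor, had 4.85 and 9.34. IL10RB had an exonic peak in both lists, but its peaks formed no pair with each other.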
